A study of Mus musculus with 30 samples.

Results

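The cerebral cortex of mice with floxed Brap and Emx1-Cre was compared directly with that of mice with floxed Brap and Tie2-Cre, both at 3 months of age. The comparison used 11 of the 30 libraries of the series, 6 of genotype Brapflox/floxEmx1Cre, whose phenotype the labels give as strong, and 5 of genotype Brapflox/floxTie2Cre, whose phenotype they give as mild. The members were chosen by genotype and age alone, so every gene of the count table entered the comparison. Both groups carried a pair of floxed Brap alleles and a Cre driver, and the labels give the treatment as none. The series measured polyadenylated RNA of whole cortex for 3 drivers, aimed at endothelium, at neurons after birth and at neural progenitors, with littermates as controls, at 3 months and, for Emx1-Cre, also at 10 months. The 4 control libraries of 3 months, of genotype Brapflox/wt without Cre, are given below as reference levels only. Each library is labelled as a biological replicate.

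Brap, BRCA1-associated protein, is a ubiquitin ligase that binds nuclear localization signals in the cytoplasm. It restrains mitogenic signalling by holding back the scaffold KSR, which brings RAF and MEK together, and it gives way when RAS is active. Emx1-Cre recombines in progenitors of the dorsal telencephalon, which give rise to cortical excitatory neurons, astrocytes and oligodendrocytes. Tie2-Cre recombines in endothelium, and it is also known for activity in blood-forming cells, so the floxed alleles can be lost there too. A difference between these groups can therefore come from cells that lost Brap or from cells that respond to them. In bulk cortex, fewer cells of a type and less RNA per cell cannot be told apart.

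Depth was similar in the 2 groups, with 21495909 to 27270444 estimated counts per library, and 21430680 to 26150785 in the controls. A gene is called higher or lower here only where its adjusted p was under 0.05. Levels are given as CPM, a gene's estimated count divided by the scaled total of its library and put on the usual per-million scale, and differences as log2 fold changes ± standard error, Emx1-Cre minus Tie2-Cre. The groups differed in how much their libraries varied. The median standard deviation of log2 CPM was 0.346 over the 6 Emx1-Cre libraries, 0.161 over the 5 Tie2-Cre libraries and 0.183 over the 4 controls, and it was larger in Emx1-Cre for 87.7% of genes. The first principal component held 48.8% of the variance, and the Tie2-Cre libraries lay together on it between -55.39 and -47.57. Emx1-Cre replicates 1 to 5 lay between 46.71 and 73.28, and the library labelled Emx1-Cre replicate 6 lay at -24.12, on the side of the Tie2-Cre group. By their counts of Xist and of Y-linked genes, Emx1-Cre replicates 1, 2 and 6 and Tie2-Cre replicates 1, 2 and 3 came from males and the others from females. On the second component, with 15.1% of the variance, the Emx1-Cre males lay between 9.787 and 52.2 and the females between -52.53 and -1.082, while the Tie2-Cre libraries stayed between -3.223 and 5.72.

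**Figure D1:**
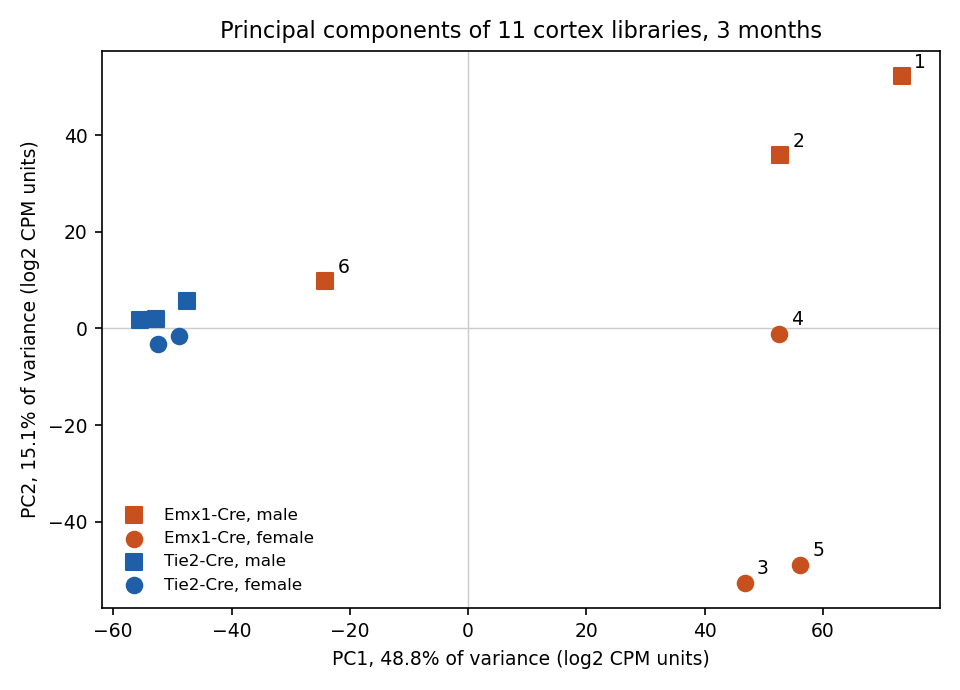
First and second principal components of log2 CPM over 16431 genes, with 1 point per library, squares for males and circles for females. The 5 Tie2-Cre libraries lie together at the left, 5 Emx1-Cre libraries spread out at the right, and Emx1-Cre replicate 6 lies at -24.12 on the first component.

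Defining markers of the cortex were present in both groups. Slc17a7, the vesicular glutamate transporter of cortical excitatory neurons, lay between 789 and 2029 CPM in Emx1-Cre and between 1144 and 1322 CPM in Tie2-Cre. Gad1, which makes GABA, lay between 356 and 594 CPM and between 356 and 394 CPM. Neither passed the test (log2 fold change 0.27 ± 0.19, adjusted p = 0.266 for Slc17a7; log2 fold change 0.29 ± 0.15, adjusted p = 0.131 for Gad1). Defining markers of T cells were at or near 0: Cd3e stood at 0 in 4 of 6 Emx1-Cre libraries, and its highest value in any of the 11 libraries was 0.194 CPM. Haemoglobin transcripts, a sign of blood in the tissue, made up 0.0025% to 0.0372% of counts in Emx1-Cre and 0.0395% to 0.0539% in Tie2-Cre, so the groups did not overlap. The part of blood content in the results below was not tested.

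Counts of Brap itself were higher, not lower, with Emx1-Cre. Its level was 93.1, 77.4, 109, 114, 113 and 68.5 CPM in Emx1-Cre replicates 1 to 6 and 68, 66.1, 65.6, 71 and 59.7 CPM in Tie2-Cre replicates 1 to 5, with a control mean of 61.6 CPM. It was higher in Emx1-Cre, with replicate 6 alone inside the Tie2-Cre range (log2 fold change 0.54 ± 0.13, adjusted p = 0.0108, edgeR's quasi-likelihood test, adjusted after Benjamini-Hochberg, as for all adjusted p-values here). The gene (ENSMUSG00000029458.14) lies on the plus strand at chromosome 5, 121660563 to 121687256, in build GRCm38. The labels do not say which exons are floxed, so a count over the whole gene cannot show the deletion and gives no check of the genotypes. Emx1, whose promoter names the first driver, stood between 7.65 and 19.6 CPM and between 11.8 and 14.5 CPM and did not pass the test (log2 fold change 0.04 ± 0.22, adjusted p = 0.913). Tek encodes the angiopoietin receptor TIE2 that names the second driver. Its levels were 3.18 to 7.05 CPM in Emx1-Cre and 11.1, 10.8, 8.83, 9.07 and 7.69 CPM in Tie2-Cre, with no overlap, and it was lower in Emx1-Cre (log2 fold change -0.85 ± 0.20, adjusted p = 0.00743). This call was lost in females alone (adjusted p = 0.165) and in males alone (adjusted p = 0.0788). The call of Brap was also lost in males alone (adjusted p = 0.262).

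Of the 16431 genes tested, 5600 differed between the groups at an adjusted p under 0.05, which is 34.1%. Among them 3050 were higher in Emx1-Cre (18.6%) and 2550 were lower (15.5%), and 1089 (6.63%) and 707 (4.3%) did so by at least 2-fold. At an unadjusted p under 0.05, 7675 genes passed (46.7%). All 6 Emx1-Cre libraries lay above all 5 Tie2-Cre libraries for 1402 genes (8.53%) and below them for 1348 (8.2%). The Tie2-Cre mean lay nearer to the control mean than the Emx1-Cre mean did for 5479 of the 5600 genes (97.8%). For the median called gene, the Tie2-Cre mean was 0.0852 log2 units from the control mean and the Emx1-Cre mean was 0.666 away. These are distances of group means, on the scale log2(CPM + 0.1), and were not tested.

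Genes close to Brap, Emx1 and Tek were called at shares on both sides of the background. The labels do not give the insertion site of either Cre driver. Within 5 Mb of Brap, 29 genes were higher and 20 lower of 126 tested, which is 38.9% against 34.1% of all genes. Within 5 Mb of Emx1, 28 of 117 genes were called (23.9%), and within 5 Mb of Tek, 8 of 26 (30.8%). Shares by chromosome ran from 29.1% to 37.1%. Within 1 Mb of the 3 loci 24 of 72 tested genes were called (33.3%), with 39.5%, 22.2% and 42.9% at Brap, Emx1 and Tek. The 7 of them named next were chosen after their values were seen. Near Brap, Hvcn1, a proton channel of microglia and other immune cells, was higher (2.32 ± 0.30). Rph3a, a RAB3 effector of synaptic vesicles, and Rasal1, a RAS GTPase-activating protein, were lower there (-1.14 ± 0.16 and -0.76 ± 0.18). Near Emx1, the membrane repair gene Dysf was higher (2.15 ± 0.38), and Nat8f3 and the growth factor gene Tgfa were lower (-1.65 ± 0.34 and -0.80 ± 0.17). Plaa, near Tek, was higher (0.78 ± 0.17).

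The 10 largest differences upward, among genes of at least 1 CPM on average, included acute-phase, interferon and protease inhibitor genes. Saa3, an acute-phase serum amyloid gene, had 0 counts in all 5 Tie2-Cre libraries and between 0.0389 and 18.3 CPM in Emx1-Cre. Set against a floor of 3 counts over the Tie2-Cre group, it was at least 390-fold higher. Tgm1, a protein cross-linking transglutaminase, reached 105 CPM in Emx1-Cre against at most 0.218 CPM in Tie2-Cre (log2 fold change 8.73 ± 1.44, adjusted p = 0.00244). Ifi202b, an interferon-inducible DNA-binding gene, lay between 1.09 and 50.4 CPM against at most 0.271 CPM (log2 fold change 7.82 ± 1.15, adjusted p = 0.00133). Each of these 3 genes was lowest in Emx1-Cre replicate 6, at 0.0389, 0.311 and 1.09 CPM. Serpina3m, an acute-phase protease inhibitor gene, had 3 counts in Tie2-Cre, a ratio of 298 with a 95% counting interval of 102 to 1450, and it shares 24.5% of its 31-base words with Serpina3k. The gene listed as ETV3L also had 3 counts there, a ratio of 225 with an interval of 76.6 to 1090, and it is named in capitals as in the table. These intervals cover counting error only. Cxcl10 completes the set of the 10 largest together with 4 genes that share sequence with another gene.

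Those 4 are uncertain, since estimated counts can be split between near-identical copies. Rbpj-ps3, Gm7488 and Ncoa4-ps share 93.2%, 100% and 96.6% of their 31-base words with Rbpj, Nudt21 and Ncoa4. They stood at 0 in Emx1-Cre replicate 6 and at 0 to 0.338 CPM in Tie2-Cre, while their control means were 2.37, 0.832 and 8.36 CPM with 1 of 4 control libraries at 0 for each. Gm49339 shares 96.1% with Lilrb4a (log2 fold change 6.91 ± 1.16, adjusted p = 0.00207). Among the 10 largest differences downward, 3 are of the same kind. Gm15459 shares 91.9% with Hspa8 and stood at 0.616, 0.271, 0.322, 364 and 0.465 CPM in Tie2-Cre, so its difference rests on replicate 4, and its sign turned when that library was left out (1.1). Tpm3-rs7 shares 78.6% with Tpm3 and was above 1 CPM in Tie2-Cre replicates 1 and 3 alone. Gm4735 shares 94.9% with Eno1b and stood at 136, 105, 0.230, 5.64 and 6.46 CPM. The 3 genes lost their calls in females alone, and Gm15459 and Gm4735 each did so in 6 of the 11 fits without a single library, with adjusted p from 0.0533 to 0.211.

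In 6 of the other 7 genes with the largest differences downward the groups did not overlap. Gm765 stood at 4.61, 5.85, 5.29, 3.91 and 6.29 CPM in Tie2-Cre and at no more than 0.272 CPM in Emx1-Cre (log2 fold change -5.05 ± 0.36, adjusted p = 4.66e-05). Rpe65, the retinoid isomerohydrolase, lay between 0.966 and 4.77 CPM in Tie2-Cre and at most at 0.460 CPM in Emx1-Cre (-3.54 ± 0.69). Zfp125, Gm26673 and C030029H02Rik had log2 fold changes of -3.65, -3.29 and -3.05, and for Zfp125 the groups overlapped at Tie2-Cre replicate 2 (0.310 CPM). Arc and Egr2, both immediate early genes, complete the set and are described with their group.

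**Figure D2:**
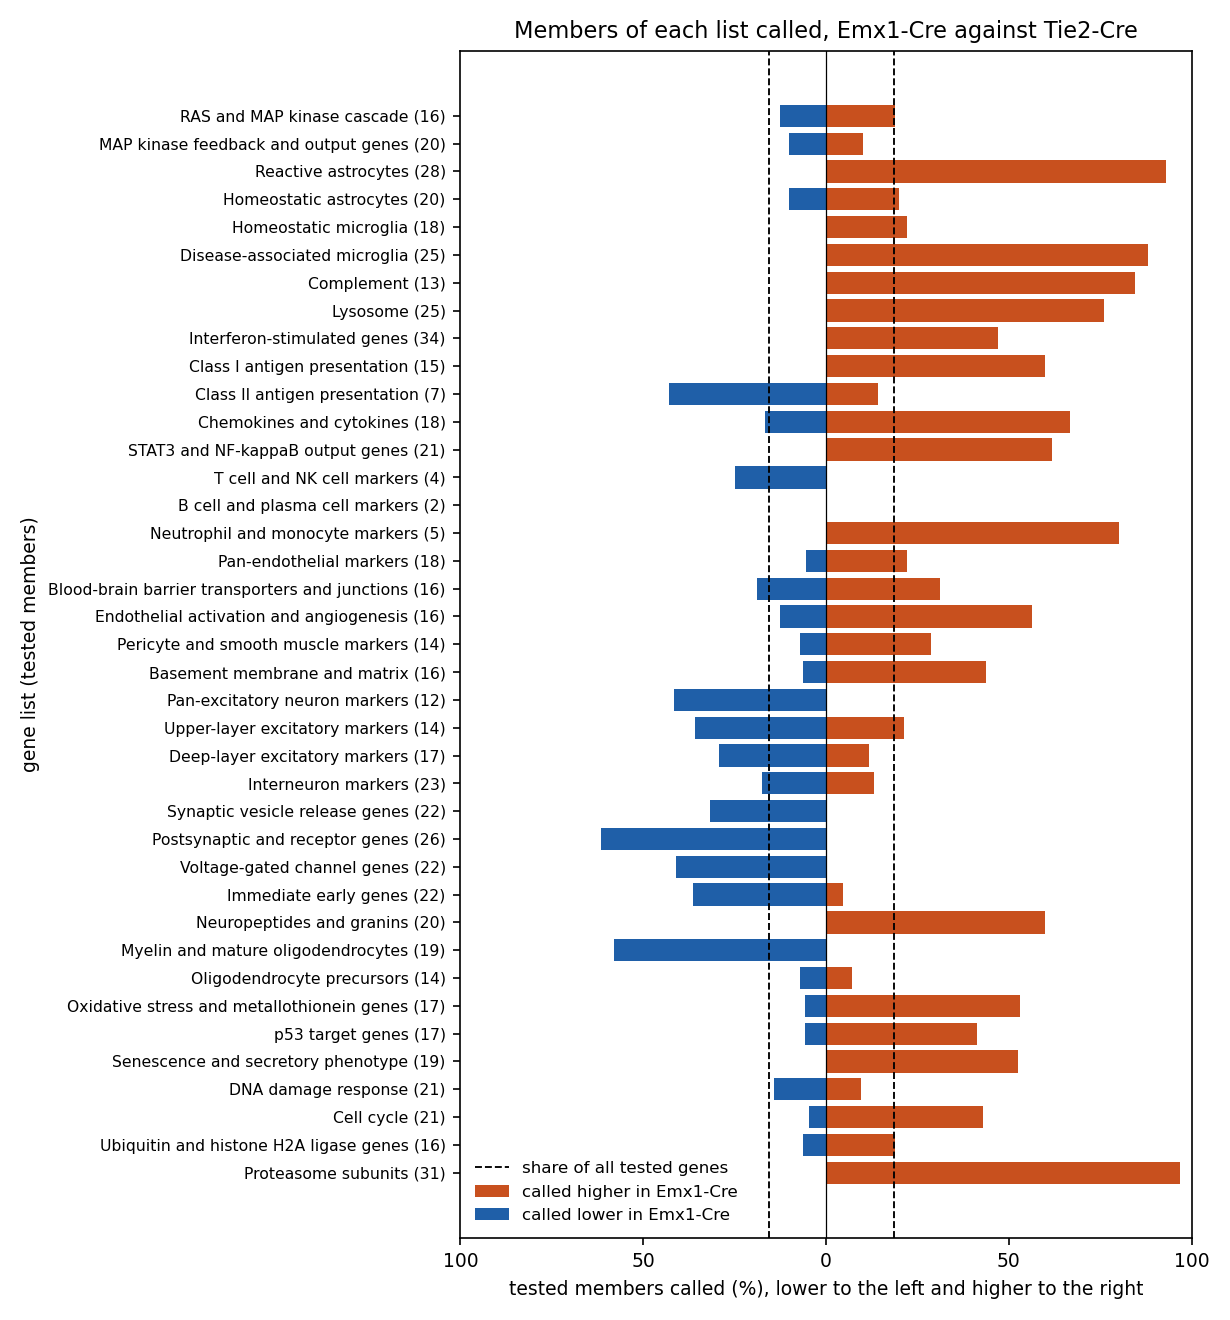
Share of the tested members of each gene list that were called higher (to the right) or lower (to the left) in Emx1-Cre, with dashed lines at 18.6% higher and 15.5% lower for all tested genes. Proteasome and reactive astrocyte genes reach 96.8% and 92.9% on the right, and postsynaptic and myelin genes 61.5% and 57.9% on the left.

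Genes of the RAS to MAP kinase cascade, in which Brap acts, were called about as often as all genes. Of 16 tested members, 3 were higher and 2 lower, with a median log2 fold change of -0.04 against 0.01 for all tested genes. Ksr2, a KSR scaffold, was lower (log2 fold change -0.56 ± 0.14, adjusted p = 0.011), and the adaptor gene Grb2 was higher (0.39 ± 0.11). The 3 higher became 1 without Tie2-Cre replicates 4 or 5, and the 2 lower became 1 without Tie2-Cre replicates 1, 2 or 5. Of 20 feedback and output genes of the pathway, 2 were higher and 2 lower, 10% each against 18.6% and 15.5% of all genes. Fosl1, an AP-1 subunit, was higher (log2 fold change 4.64 ± 0.91, adjusted p = 0.00374), with 2.01, 4.22, 4.04, 0.422, 5.78 and 0.194 CPM in Emx1-Cre and at most 0.174 CPM in Tie2-Cre. Myc was higher (1.41 ± 0.29) and the ETS factor gene Etv1 lower (-0.95 ± 0.21). Dusp6, the ERK phosphatase that ERK itself induces, stood at 37.7, 45.7, 85.7, 52.5, 85.2 and 23.8 CPM and 68, 72.9, 47.9, 62.9 and 63 CPM and did not pass (log2 fold change -0.19 ± 0.28, adjusted p = 0.617). Its Emx1-Cre libraries lay on both sides of the Tie2-Cre range. The 2 feedback genes called higher became 1 without Emx1-Cre replicates 1, 2, 3 or 5 and 4 without replicate 6, and the 2 lower became 1 without Tie2-Cre replicate 4.

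Astrocytes react to injury by raising intermediate filaments, cytokine receptors and matrix genes. Of 28 reactive astrocyte genes, 26 were higher in Emx1-Cre and none lower, with a median log2 fold change of 3.07. For 18 of them Emx1-Cre lay above Tie2-Cre without overlap, which held for 8.53% of all genes. Gfap, the intermediate filament of reactive astrocytes, stood at 828, 2103 and 3581 CPM (lowest, median and highest) in Emx1-Cre and at 222, 265, 267, 328 and 238 CPM in Tie2-Cre. All 6 Emx1-Cre libraries were above all 5 Tie2-Cre libraries, and the lowest was replicate 6 (log2 fold change 3.00 ± 0.31, adjusted p = 0.000218). Osmr, the oncostatin M receptor, stood at 17.8, 49.5 and 82.1 CPM and at 3.88, 4.14, 3.59, 4.21 and 3.46 CPM, again without overlap (log2 fold change 3.65 ± 0.33, adjusted p = 0.000153). Fbln5, an elastic fibre protein, had the smallest adjusted p of all genes together with Gm765 (log2 fold change 3.06 ± 0.23, adjusted p = 4.66e-05), and Aspg, an asparaginase, was higher by 2.52 ± 0.22. Lcn2, a secreted iron-siderophore binding protein chosen here after its values were seen, stood at 3.15, 73.3 and 116 CPM in Emx1-Cre and at 0.181, 0.232, 12.1, 0.347 and 0.591 CPM in Tie2-Cre. Tie2-Cre replicate 3 was above Emx1-Cre replicate 6 for this gene (log2 fold change 4.72 ± 1.23, adjusted p = 0.0152).

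Of 20 genes of resting astrocytes, 4 were higher (20%) and 2 lower (10%), against 18.6% and 15.5% of all genes. Their mean log2 CPM was 8.08, 7.87, 7.06, 7.67, 6.99 and 7.64 in Emx1-Cre replicates 1 to 6, so that replicates 1 and 2 lay above the Tie2-Cre range of 7.41 to 7.76 and replicates 3 and 5 below it. Aldh1l1, a folate enzyme used as an astrocyte marker, was higher (1.33 ± 0.27), as was the acyl-CoA synthetase gene Acsbg1 (1.01 ± 0.28). Slc7a10, a serine and glycine transporter of astrocytes, was lower (-0.71 ± 0.16). In females alone, none of the 20 was called higher and 4 were lower, while 11 were higher and none lower in males without Emx1-Cre replicate 6. Without Tie2-Cre replicate 4, 1 was lower.

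Microglia that meet debris or degenerating cells turn on a lipid-handling and lysosomal programme. Of 25 such disease-associated genes, 22 were higher and none lower, with a median of 1.77. For 18 of them Emx1-Cre lay above Tie2-Cre without overlap, against 8.53% of all genes. Gpnmb, a membrane glycoprotein of phagocytes, stood at 10.0, 25.5 and 62.5 CPM in Emx1-Cre and 1.74, 1.82, 2.67, 2.17 and 2.62 CPM in Tie2-Cre (log2 fold change 3.73 ± 0.45, adjusted p = 0.00054). Its replicate 6, at 37.9 CPM, was above the median of the 6. Cst7, a cysteine protease inhibitor, was at most 0.138 CPM in Tie2-Cre and at least 1.54 CPM in Emx1-Cre (6.51 ± 0.89). Ctsl, a lysosomal protease, and Timp2, a metalloprotease inhibitor, were higher by 1.67 ± 0.23 and 0.76 ± 0.10. Of 18 genes of resting microglia, 4 were higher (22.2%, against 18.6% of all genes) and none lower, or 7 higher without Emx1-Cre replicate 6. The direction turned in females alone, with 1 higher and 6 lower. Limma voom called 4 lower, and 3 were lower without Emx1-Cre replicates 1 and 2. P2ry12, the purinergic receptor of resting microglia, stood at 28.7, 47.6, 10.2, 18.5, 8.48 and 26.6 CPM and 46.9, 49.4, 27.2, 47.5 and 28.3 CPM and did not pass (log2 fold change -0.77 ± 0.39, adjusted p = 0.137). The mean log2 CPM of these 18 genes was 5.44, 6.22, 4.73, 4.86, 4.66 and 5.19 in Emx1-Cre replicates 1 to 6, so that replicates 1 and 2 lay above the Tie2-Cre range of 4.98 to 5.32 and 3 others below it.

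Complement tags material for removal by microglia, and lysosomes degrade it. Of 13 complement genes, 11 were higher and none lower (median 2.19). C1qa, a chain of the initiating complex, stood at 101, 182 and 574 CPM in Emx1-Cre and at 42.6, 42.7, 53.9, 62.4 and 52.4 CPM in Tie2-Cre, with no overlap (log2 fold change 2.46 ± 0.45, adjusted p = 0.00324). C3, the central component, was higher by 3.33 ± 0.56, and Itgb2, the shared chain of complement receptors, by 2.19 ± 0.35. C4b was higher by 1.25 ± 0.23, and it shares 48.3% of its 31-base words with C4a. Of 25 lysosomal genes, 19 were higher and none lower (median 0.83). In females alone 12 were called higher and 1 lower. Ctsd, an aspartic protease, stood at 710.3, 1271 and 3408 CPM in Emx1-Cre and at 393, 396, 402, 396 and 413 CPM in Tie2-Cre (log2 fold change 2.07 ± 0.38, adjusted p = 0.00299). Ctsh and the glycogen-degrading enzyme gene Gaa were higher by 2.52 ± 0.47 and 0.51 ± 0.08.

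**Figure D3:**
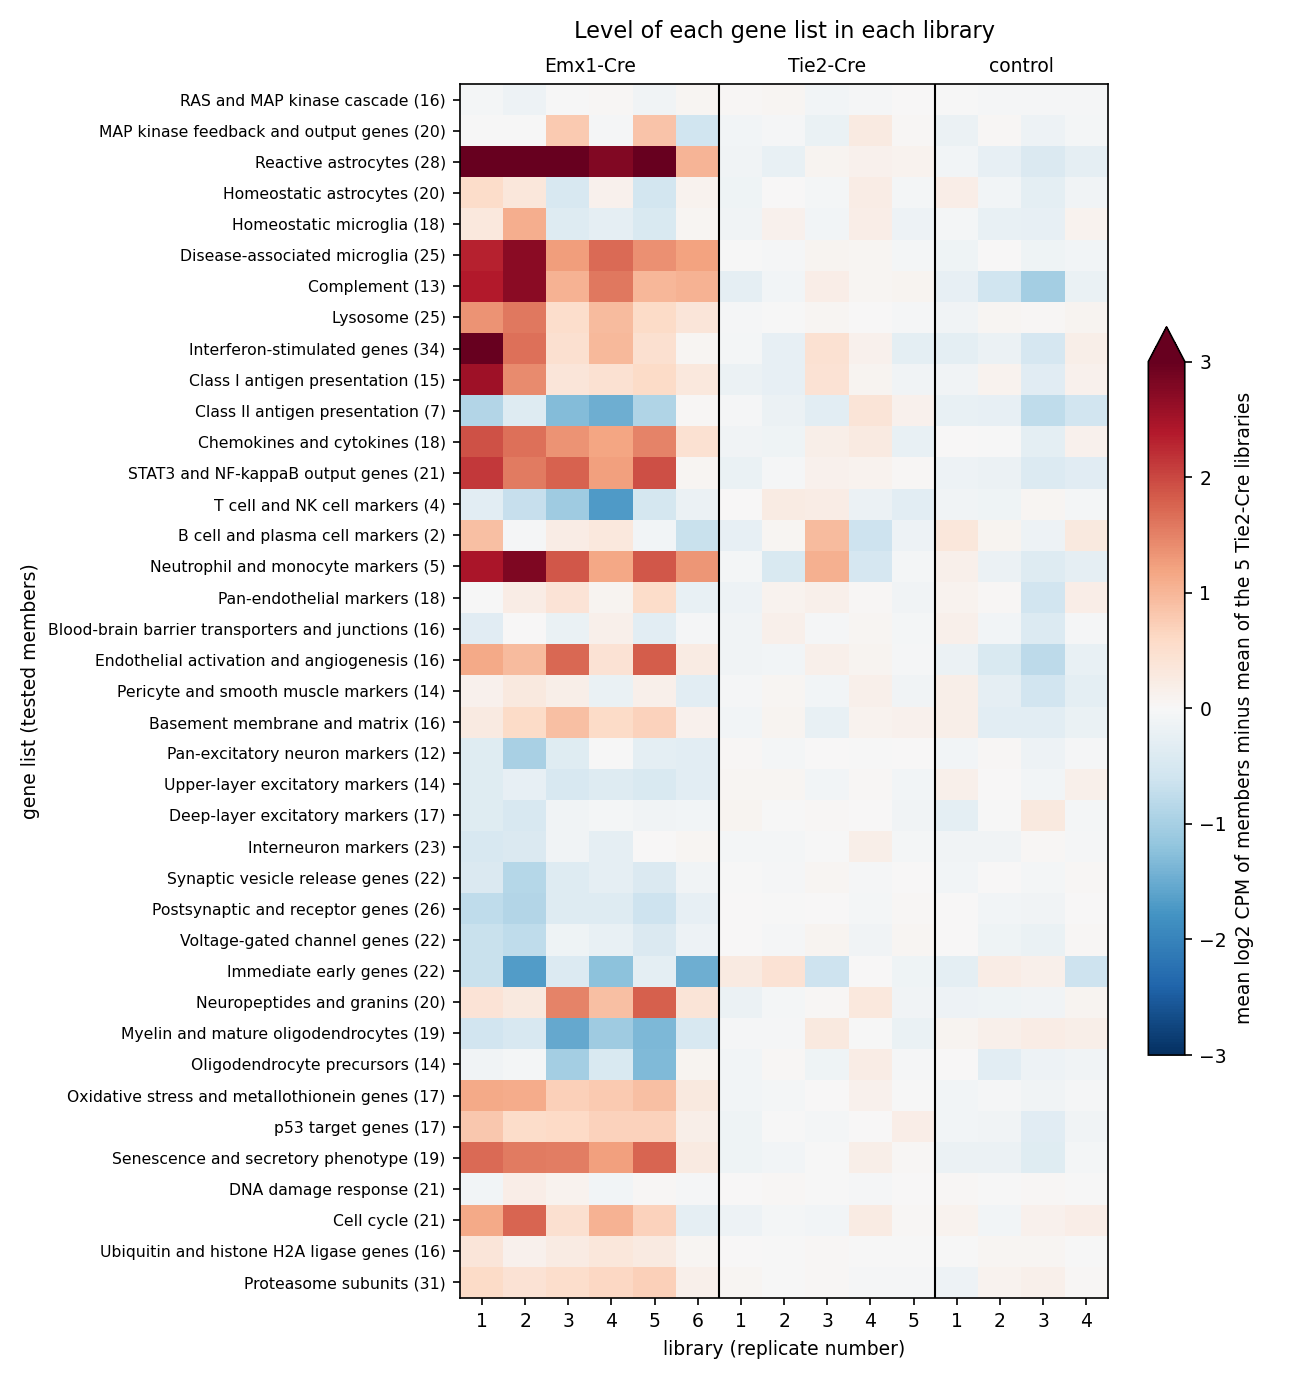
Mean log2 CPM of the tested members of each list in each library, minus the mean of the 5 Tie2-Cre libraries, with red above and blue below and Emx1-Cre, Tie2-Cre and control libraries side by side. Reactive astrocyte genes are high in Emx1-Cre replicates 1 to 5 and less so in replicate 6, and the interferon-stimulated genes are highest in replicate 1.

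Interferons act through STAT factors that bind a short element before their target genes. The promoters of 2 interferon-stimulated genes are shown because both hold this element and both differ between the groups, with the match in capitals: GAAA, 2 bases of any kind and GAAA again, on either strand. The 250 bases before each start are given 5′ to 3′ from RefSeq, build GRCm38.p6.

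Cxcl10 (chr5:92348890-92349139, minus strand): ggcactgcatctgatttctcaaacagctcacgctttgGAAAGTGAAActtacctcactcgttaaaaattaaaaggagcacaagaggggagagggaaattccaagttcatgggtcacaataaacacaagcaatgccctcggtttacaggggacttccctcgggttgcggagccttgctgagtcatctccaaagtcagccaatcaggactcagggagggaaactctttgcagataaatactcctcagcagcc

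Gbp2 (chr3:142620413-142620662, plus strand): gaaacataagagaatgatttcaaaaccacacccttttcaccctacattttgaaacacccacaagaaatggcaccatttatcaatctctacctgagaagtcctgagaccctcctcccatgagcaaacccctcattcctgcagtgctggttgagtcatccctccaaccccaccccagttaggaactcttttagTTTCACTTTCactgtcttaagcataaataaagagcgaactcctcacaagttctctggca

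Of 39 interferon-stimulated genes listed, 34 were tested, and 16 were higher and none lower, with a median of 2.58. All 6 Emx1-Cre libraries lay above all 5 Tie2-Cre libraries for only 2 of the 34, while this held for 8.53% of all genes. Cxcl10, a chemokine for activated T cells, stood at 280.2, 5.31, 7.62, 5.78, 8.59 and 0.505 CPM in Emx1-Cre replicates 1 to 6 and at 0.109, 0.271, 0.368, 0.347 and 0.0422 CPM in Tie2-Cre (log2 fold change 7.81 ± 1.93, adjusted p = 0.0123). Replicate 1 was far above the rest, and the groups did not overlap. Gbp2, an interferon-induced GTPase, stood at 126, 16.8, 14.7, 9.32, 14.7 and 3.92 CPM and at 2.97, 2.17, 4.37, 3.56 and 2.62 CPM (log2 fold change 3.30 ± 0.85, adjusted p = 0.0135). Ifitm3, which blocks viral entry, and Xaf1, an interferon-induced regulator of cell death, were higher by 2.32 ± 0.52 and 2.26 ± 0.59. Isg15, a ubiquitin-like modifier chosen after its values were seen, stood at 48.1, 3.64, 1.10, 2.57, 0.987 and 0.777 CPM and 0.762, 0.619, 1.98, 0.477 and 0.633 CPM. Its call (log2 fold change 3.41 ± 1.19, adjusted p = 0.044) was lost in 6 of the 11 fits without a single library, with adjusted p from 0.0521 to 0.147. Averaged over the list, log2 CPM was 6.02, 3.02, 1.83, 2.34, 1.84 and 1.42 in Emx1-Cre and 1.30, 1.10, 1.82, 1.49 and 1.07 in Tie2-Cre. Without Emx1-Cre replicate 1, 8 members were called higher, and without Tie2-Cre replicates 1, 2, 3, 4 or 5 in turn, 4, 4, 7, 6 and 5. In females alone 6 were called higher, and 33 in a fit of all 30 libraries. With no filter on low counts the number called higher was 4, and 10 under limma voom.

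The element was found in the promoters of 18 of the 28 listed members with a RefSeq promoter, and in those of 9 of the 13 called members among them. Of all 27025 genes with a window from 250 bases before to 50 bases after a start, 3.99% held it. A match is a description of these letters and no sign that a factor was bound. Class I antigen presentation, which interferon also raises, had 9 of 15 members higher and none lower. H2-D1 and H2-K1, class I heavy chains, were higher by 1.26 ± 0.34 and 1.60 ± 0.45, and the peptide loading genes Tap2 and Tapbp by 0.94 ± 0.26 and 1.12 ± 0.32. The count of 9 fell to 4, 4, 5 and 4 without Tie2-Cre replicates 1, 2, 4 and 5, and to 4 in females alone. With no filter on low counts it was 2, and H2-K1 and Tapbp lost their calls (adjusted p = 0.0567 and 0.0537). Tapbp also lost it in females alone (adjusted p = 0.0502). Of 9 class II genes 7 were tested, and 3 were lower and 1 higher. H2-Ab1, a class II chain of antigen-presenting cells, was lower (-1.27 ± 0.32) and H2-DMb1, which loads class II, was higher (1.39 ± 0.32). Only 1 class II member was called lower without Emx1-Cre replicates 1, 3 or 4 or Tie2-Cre replicates 1, 4 or 5, and 5 were in females alone.

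Among members that passed the count filter, many cytokine genes and genes that STAT3 and NF-kappaB induce were called higher. Tnf and Ccl3, at most 0.138 and 0.322 CPM in Tie2-Cre, passed that filter through their Emx1-Cre levels. Being high in Emx1-Cre thus helped some members to be tested, so these shares cannot be set against that of all genes. Of 26 chemokine and cytokine genes 18 were tested, and 12 were higher and 3 lower. Tnf stood at 0.272, 0.995 and 1.98 CPM in Emx1-Cre and at 0, 0.0387, 0.138, 0.130 and 0.0845 CPM in Tie2-Cre, without overlap (log2 fold change 3.73 ± 0.65, adjusted p = 0.00225). Ccl3, a monocyte chemokine, was higher by 4.41 ± 0.80 and the cytokine gene Tgfb1 by 1.80 ± 0.31, while Cxcl12, a chemokine of vessels and meninges, was lower (-1.21 ± 0.22). The count of 12 fell to 7, 7, 6 and 6 without Emx1-Cre replicates 1, 2, 4 and 5, where 13 of these low genes passed the filter on counts. Under a stricter filter, 1 CPM in at least 5 libraries, 5 were called higher. Of 23 STAT3 and NF-kappaB output genes 21 were tested, and 13 were higher and none lower. Bcl3, an NF-kappaB cofactor, and Stat3 itself were higher by 4.44 ± 0.71 and 1.20 ± 0.21. Cebpd, a transcription factor of the acute phase, stood at 70.3, 32.4, 50.2, 79.3, 87.1 and 4.12 CPM in Emx1-Cre and 4.03, 5.27, 4.09, 5.03 and 5.95 CPM in Tie2-Cre (log2 fold change 3.47 ± 0.59, adjusted p = 0.00234), with replicate 6 inside the Tie2-Cre range.

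Markers of blood-borne immune cells were mostly too low to test. Of 15 T and NK cell markers 4 were tested, none was higher and 1 was lower, or 2 without Emx1-Cre replicate 6. The 1 was Cd4, at 3.96, 2.97, 0.918, 0.337, 1.24 and 4.93 CPM against 8.81, 14.1, 12.2, 4.82 and 6.59 CPM (log2 fold change -1.96 ± 0.54, adjusted p = 0.0169). Of 8 B and plasma cell markers 2 were tested and neither passed. Of 14 neutrophil and monocyte markers 5 were tested, and 4 were higher, or 2 without Emx1-Cre replicates 1, 2, 3 or 5. Lyz2, a lysozyme shared by monocytes and activated microglia, stood at 14.3, 36 and 110.3 CPM in Emx1-Cre and 9.65, 9.29, 10.5, 11.5 and 9.37 CPM in Tie2-Cre (log2 fold change 2.23 ± 0.49, adjusted p = 0.00691). Summed over the 14 markers, levels were 129 to 314 CPM in Emx1-Cre and 81.2 to 99.4 CPM in Tie2-Cre, most of it from Fn1, fibronectin, which vessels also express. Summed over the 15 T and NK cell markers, levels were 360.0 to 561 CPM and 511 to 609 CPM, most of it from Thy1, which neurons also express. The neutrophil gene Ly6g was at 0 in 4 of 6 Emx1-Cre and all 5 Tie2-Cre libraries, with no library above 0.147 CPM. The part of these cells in the cytokine and microglial results was not tested.

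Endothelium was the target of Tie2-Cre, so vessel genes were examined as a group. Of 18 pan-endothelial markers, 4 were higher in Emx1-Cre and 1, Tek, was lower, a share higher of 22.2% against 18.6% of all genes. Eng, a TGF-beta co-receptor, was higher by 1.33 ± 0.29, the tight junction gene Cldn5 by 0.86 ± 0.22 and the adhesion gene Pecam1 by 0.76 ± 0.22. Cldn5 stood at 20.6, 25.5 and 49.1 CPM in Emx1-Cre and 13.9, 16.1, 19.5, 19.1 and 13 CPM in Tie2-Cre, with a control mean of 15.3 CPM. Pecam1 lost its call without Tie2-Cre replicate 2 (adjusted p = 0.0535), which left 2 of the 18 higher. Of 16 genes of barrier transport and junctions, 5 were higher (31.2%) and 3 lower (18.8%), against 18.6% and 15.5% of all genes. The monocarboxylate transporter gene Slc16a1 was higher (0.74 ± 0.13), and the organic anion transporter gene Slc22a8 and the tight junction gene Ocln were lower (-1.41 ± 0.28 and -1.0 ± 0.25). The 5 higher fell to 2 without Tie2-Cre replicates 1 or 2 and to 3 without Emx1-Cre replicates 3 or 5 or Tie2-Cre replicates 3 or 4, and the 3 lower became 6 without Emx1-Cre replicate 6.

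Activated vessel genes differed more often. Of 20 genes of endothelial activation and vessel growth 16 were tested, and 9 were higher and 2 lower, or 1 lower without Tie2-Cre replicate 4. Icam1, which binds leukocytes, stood at 4.35, 16.4 and 34.7 CPM in Emx1-Cre and 2.94, 2.71, 1.84, 2.43 and 1.94 CPM in Tie2-Cre (log2 fold change 2.93 ± 0.51, adjusted p = 0.00233). Vwf, the clotting factor of endothelial granules, was higher by 1.63 ± 0.31. Apln, the ligand of the apelin receptor, was lower, at 4.18, 5.47 and 12.3 CPM against 28.7, 25.8, 26.9, 36.1 and 27.1 CPM (log2 fold change -2.01 ± 0.28, adjusted p = 0.000854). Of 16 basement membrane and matrix genes, 7 were higher and 1 lower. The collagen genes Col4a1, Col4a2 and Col18a1 were higher by 1.71 ± 0.33, 1.36 ± 0.25 and 1.43 ± 0.22, and Sparc, which binds collagen, by 1.72 ± 0.23. Of 14 pericyte and smooth muscle markers, 4 were higher (28.6%) and 1 lower (7.14%), against 18.6% and 15.5% of all genes. Among the higher were the intermediate filament gene Des (1.83 ± 0.46) and the actin-binding gene Tagln (1.34 ± 0.37). The 1 lower became 2 without Emx1-Cre replicate 6, 3 in females alone and none without Emx1-Cre replicates 3, 4 or 5 or Tie2-Cre replicates 1, 2, 4 or 5.

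**Figure D4:**
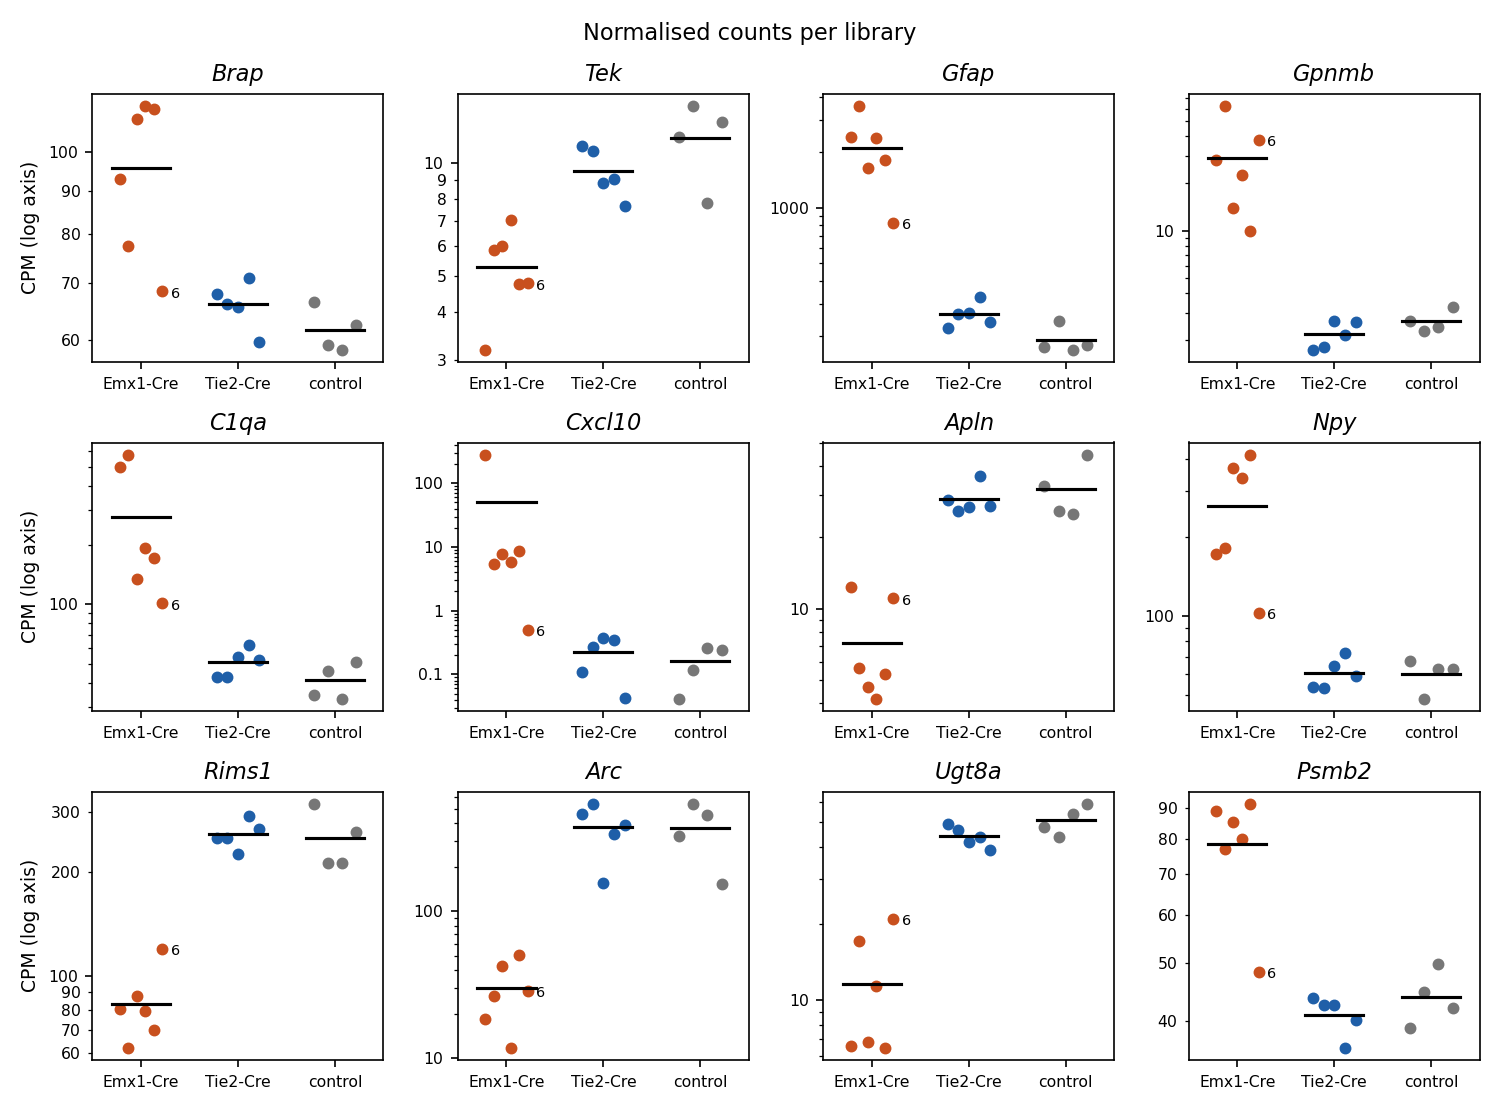
CPM on a log axis for 12 genes in each Emx1-Cre, Tie2-Cre and control library, with bars at the group means and Emx1-Cre replicate 6 numbered. Brap is higher in 5 of 6 Emx1-Cre libraries than in any Tie2-Cre library, and Rims1, Arc and Ugt8a are lower in all 6.

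Markers of neuron types differed in both directions. Of 12 markers shared by excitatory neurons, none was higher and 5 were lower. Camk2a, the calcium kinase of excitatory synapses, stood at 1258, 2073 and 2945 CPM in Emx1-Cre and 3689.5, 3906, 3830.4, 3979 and 4251 CPM in Tie2-Cre (log2 fold change -0.91 ± 0.19, adjusted p = 0.0049), and Nrgn, a calmodulin-binding protein, was also lower (-0.64 ± 0.18). In females alone 1 of the 12 was called lower, and 3 without Tie2-Cre replicates 1, 2 or 3. Of 15 upper-layer markers 14 were tested, and 5 were lower (35.7%) and 3 higher (21.4%), against 15.5% and 18.6% of all genes. Lamp5, a membrane protein of upper-layer cells, stood at 34.5, 48.5 and 58.3 CPM in Emx1-Cre and 138, 136, 209, 138 and 141 CPM in Tie2-Cre (log2 fold change -1.67 ± 0.15, adjusted p = 0.000153). The synaptic vesicle fusion gene Otof and the WNT agonist gene Rspo1 were lower (-2.20 ± 0.30 and -1.34 ± 0.17), and Wfs1, a protein of the endoplasmic reticulum, was higher by 0.97 ± 0.14. Of 18 deep-layer markers 17 were tested, and 5 were lower (29.4%) and 2 higher (11.8%), against the same shares of all genes. Ldb2 was among the lower (-0.90 ± 0.14) and the matrix protein gene Ccn2 among the higher (1.73 ± 0.34). The 2 higher became 1 without Emx1-Cre replicates 3, 4 or 5 or any 1 of the Tie2-Cre libraries. Of 23 interneuron markers, 3 were higher (13%) and 4 lower (17.4%), against 18.6% and 15.5% of all genes. Adarb2 and the neuregulin receptor gene Erbb4 were lower (-0.86 ± 0.18 and -0.92 ± 0.20). Sst and Npy, 2 of the 3 that were higher, are also neuropeptides, and the 3 became 1 without Emx1-Cre replicate 5 or Tie2-Cre replicates 1, 2, 3 or 5.

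Genes of the synapse and of neuronal excitability that differed were lower in Emx1-Cre, and none of 3 lists had a member called higher. Without Emx1-Cre replicates 1 and 2, however, 2 channel genes and 1 vesicle release gene were called higher. Of 26 postsynaptic and receptor genes, 16 were lower (median -0.51). For 10 of them Emx1-Cre lay below Tie2-Cre without overlap, against 8.2% of all genes. Gabrd, the delta subunit of extrasynaptic GABA receptors, stood at 9.63, 17.6 and 30.2 CPM in Emx1-Cre and 50.3, 59.3, 65, 46.2 and 43.8 CPM in Tie2-Cre (log2 fold change -1.52 ± 0.25, adjusted p = 0.00182). The glutamate receptor genes Grm2 and Grin2a were lower (-0.96 ± 0.17 and -0.66 ± 0.13), as was Dlg4, the scaffold PSD-95 (-0.40 ± 0.09). Of 22 vesicle release genes, 7 were lower. Rims1, an organizer of the release site, stood at 62, 79.8 and 120.1 CPM in Emx1-Cre and 252, 252, 227, 292 and 268 CPM in Tie2-Cre (log2 fold change -1.63 ± 0.15, adjusted p = 0.000153). All 6 Emx1-Cre libraries were below all 5 Tie2-Cre libraries, with replicate 6 the highest of the 6. The complexin gene Cplx2 (-1.03 ± 0.10), the syntaxin gene Stx1a (-0.99 ± 0.16) and the synaptotagmin gene Syt2 (-0.83 ± 0.15) were lower. Of 22 voltage-gated channel genes, 9 were lower, among them the potassium channel genes Kcnq3 (-1.12 ± 0.15) and Kcna2 (-0.64 ± 0.12). In females alone the counts were 11, 4 and 3 for the 3 lists.

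Immediate early genes are transcribed within minutes of neuronal firing, and many carry the CArG box bound by serum response factor. The promoter of Egr2, a zinc finger factor of this kind, is shown because it was the only called member whose window holds the box, in capitals.

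Egr2 (chr10:67537316-67537565, plus strand): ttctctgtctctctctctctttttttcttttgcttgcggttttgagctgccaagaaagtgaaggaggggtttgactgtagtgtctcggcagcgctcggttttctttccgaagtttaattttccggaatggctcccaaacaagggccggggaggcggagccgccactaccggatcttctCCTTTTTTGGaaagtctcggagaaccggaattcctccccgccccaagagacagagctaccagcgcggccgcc

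Of 22 immediate early genes, 8 were lower and 1 was higher (median -0.78), or 3 higher without Emx1-Cre replicate 6. Arc, which acts at active synapses, stood at 18.6, 26.7, 42.7, 11.8, 50.9 and 28.8 CPM in Emx1-Cre replicates 1 to 6 and 460.0, 535, 155, 334 and 389 CPM in Tie2-Cre (log2 fold change -3.65 ± 0.40, adjusted p = 0.000359). The highest Emx1-Cre library was below the lowest Tie2-Cre library, replicate 3, and the control mean was 368 CPM. Egr2 stood at 1.03, 0.878, 2.57, 0.506, 2.78 and 1.75 CPM and 24.7, 27.6, 3.86, 13.2 and 12.2 CPM (log2 fold change -3.36 ± 0.52, adjusted p = 0.00145). The activity-induced factor genes Npas4 and Nr4a2 were lower (-2.33 ± 0.40 and -1.65 ± 0.25). For Arc, Egr2 and Npas4, replicate 6 lay within the range of the other Emx1-Cre libraries. The CArG box was found in 1 of the 18 listed members with a RefSeq promoter, which is 1 of the 6 called ones, against 1.81% of all genes.

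Neuropeptides are stored in dense-core vesicles with granins, and several of their genes respond to cyclic AMP through the CRE. The promoters of Scg2 and Sst, both chosen after their values were seen, hold the letters TGACGTCA, in capitals, and are shown for that reason.

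Scg2 (chr1:79440027-79440276, minus strand): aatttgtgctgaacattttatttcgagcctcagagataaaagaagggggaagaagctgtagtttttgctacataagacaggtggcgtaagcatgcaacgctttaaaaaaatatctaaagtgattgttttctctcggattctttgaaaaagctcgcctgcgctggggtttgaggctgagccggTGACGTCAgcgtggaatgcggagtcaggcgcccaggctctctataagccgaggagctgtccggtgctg

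Sst (chr16:23890845-23891094, minus strand): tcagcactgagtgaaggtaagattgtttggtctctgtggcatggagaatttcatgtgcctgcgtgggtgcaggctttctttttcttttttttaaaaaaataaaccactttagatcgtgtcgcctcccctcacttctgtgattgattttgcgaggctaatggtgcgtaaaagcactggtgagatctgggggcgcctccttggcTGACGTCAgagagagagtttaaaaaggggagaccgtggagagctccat

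Of 20 neuropeptide and granin genes, 12 were higher in Emx1-Cre and none lower, with a median of 0.95. For 7 of them Emx1-Cre lay above Tie2-Cre without overlap, against 8.53% of all genes. Npy, neuropeptide Y, stood at 172, 182, 369, 337, 414 and 103 CPM in Emx1-Cre replicates 1 to 6 and 53.3, 53.1, 64.4, 72.3 and 59.2 CPM in Tie2-Cre (log2 fold change 2.12 ± 0.32, adjusted p = 0.00137). Replicates 3, 4 and 5 were the highest and replicate 6 the lowest of the 6. Scg2, secretogranin II, stood at 374, 410.0, 1212, 611, 1438 and 370.4 CPM and 175, 198, 233, 276 and 212 CPM, again highest in replicates 3 and 5 (log2 fold change 1.75 ± 0.38, adjusted p = 0.00604). Gal, galanin, was at most 0.581 CPM in Tie2-Cre and up to 31.5 CPM in Emx1-Cre (4.93 ± 0.80), and Scg3 and the dynorphin gene Pdyn were higher by 0.53 ± 0.11 and 1.17 ± 0.25. Sst, somatostatin, stood at 163, 181, 318, 297, 449 and 198 CPM and 147, 176, 159, 201 and 164 CPM with overlap (log2 fold change 0.66 ± 0.24, adjusted p = 0.0465). Its call was lost in 8 of the 11 fits without a single library, with adjusted p from 0.0574 to 0.103. The CRE was found in 3 of the 15 listed members with a RefSeq promoter and in 2 of the 9 called ones among them, against 2.03% of all genes.

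Oligodendrocytes wrap axons in myelin. Of 19 myelin and mature oligodendrocyte genes, none was higher and 11 were lower (median -0.81). Ugt8a, which makes myelin galactolipids, stood at 6.61, 17.1, 6.84, 11.3, 6.47 and 20.8 CPM in Emx1-Cre replicates 1 to 6 and 49.3, 46.6, 41.7, 43.9 and 39 CPM in Tie2-Cre, without overlap (log2 fold change -1.93 ± 0.30, adjusted p = 0.0014). The cytoskeletal gene Ermn and Enpp2, autotaxin, were lower (-1.63 ± 0.26 and -1.10 ± 0.25). The 11 fell to 7 without Tie2-Cre replicate 3. Of 14 precursor genes, 1 was higher and 1 lower, 7.14% each against 18.6% and 15.5% of all genes. They were the matrix proteoglycan gene Vcan (1.05 ± 0.19) and the lineage factor gene Olig2 (-1.21 ± 0.29). The 1 lower became 4 without Emx1-Cre replicate 6 and 5 in females alone.

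Brap is a ubiquitin ligase, and the ubiquitin and proteasome genes were compared for that reason. Of 31 proteasome subunits, 30 were higher in Emx1-Cre and none lower, by a median of 0.51. For 24 of them Emx1-Cre lay above Tie2-Cre without overlap, against 8.53% of all genes. Psmb2, a core particle subunit, stood at 48.2, 82.6 and 91.5 CPM in Emx1-Cre and 43.8, 42.5, 42.5, 36.2 and 40.2 CPM in Tie2-Cre (log2 fold change 0.93 ± 0.14, adjusted p = 0.00133), with replicate 6 the lowest. The core gene Psmb3 and the regulatory particle genes Psmc2 and Psmd13 were higher by 0.88 ± 0.15, 0.55 ± 0.09 and 0.59 ± 0.10. Of 16 genes of ubiquitin and of histone H2A ubiquitylation, 3 were higher (18.8%) and 1 lower (6.25%), against 18.6% and 15.5% of all genes. The polyubiquitin gene Ubb was higher, at 1598, 1772 and 2438 CPM against 1078, 1084, 1182, 1084 and 1145 CPM (log2 fold change 0.76 ± 0.11, adjusted p = 0.00123). The deubiquitinase gene Usp15 was lower (-0.45 ± 0.13), a call lost without Tie2-Cre replicate 5 (adjusted p = 0.0522). The 3 became 6 without Emx1-Cre replicate 6.

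Of 17 oxidative stress and metallothionein genes, 9 were higher and 1 lower, or none lower without Tie2-Cre replicates 1, 2 or 4. Mt1, a metal-binding metallothionein that glucocorticoids and cytokines induce, stood at 1388, 1408, 1028, 949.6, 1389 and 315 CPM in Emx1-Cre replicates 1 to 6 and 106, 116, 154, 170.5 and 175 CPM in Tie2-Cre, without overlap (log2 fold change 2.90 ± 0.34, adjusted p = 0.000458). Mt2 was higher by 2.95 ± 0.38 and the sulfiredoxin gene Srxn1 by 1.55 ± 0.25. Of 19 p53 target genes 17 were tested, and 7 were higher and 1 lower. The death receptor gene Fas and the stress sensor gene Sesn2 were higher by 1.38 ± 0.30 and 0.97 ± 0.19, and Zmat3 was lower (-0.69 ± 0.13). Cdkn1a, the cell cycle inhibitor p21, stood at 204, 89.1, 191, 98.5, 218 and 56 CPM in Emx1-Cre and 13.1, 13.9, 27.7, 40.6 and 67.5 CPM in Tie2-Cre, with overlap at Emx1-Cre replicate 6 (log2 fold change 2.13 ± 0.50, adjusted p = 0.0086). Fkbp5, a glucocorticoid target like Cdkn1a and Mt1, stood at 56.4, 57.5, 62.5, 58.4 and 122 CPM in Tie2-Cre, and its replicate 5 was above Emx1-Cre replicate 6, at 95.8 CPM (log2 fold change 1.09 ± 0.23, adjusted p = 0.0048). Of 23 genes of senescence and its secretory phenotype 19 were tested, and 10 were higher and none lower, among them the protease inhibitor gene Timp1 (log2 fold change 5.40 ± 0.78, adjusted p = 0.00113).

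Genes that act on damaged DNA differed in both directions. Of 22 DNA damage response genes 21 were tested, and 2 were higher (9.52%) and 3 lower (14.3%), against 18.6% and 15.5% of all genes. The 2 became 1 without Emx1-Cre replicates 1, 2 or 5 and none without Emx1-Cre replicates 3 or 4 or any 1 of the Tie2-Cre libraries. The 3 became 1 without Emx1-Cre replicates 2, 4 or 5 or Tie2-Cre replicates 3 or 4 and none without Tie2-Cre replicates 1, 2 or 5. Of 22 cell cycle genes 21 were tested, and 9 were higher and 1 lower. The kinase gene Aurka and the ribonucleotide reductase gene Rrm2 were higher by 1.32 ± 0.29 and 1.64 ± 0.34, and the cyclin gene Ccnd2 was lower (log2 fold change -1.26 ± 0.15, adjusted p = 0.000458). Mki67, a marker of dividing cells chosen after its values were seen, stood at 4.55, 17.3, 2.84, 9.11, 3.04 and 2.14 CPM in Emx1-Cre and 1.52, 2.59, 1.24, 2.73 and 2.03 CPM in Tie2-Cre (log2 fold change 1.68 ± 0.53, adjusted p = 0.0277). Its call was lost in 5 fits without a single library, with adjusted p up to 0.0666. The count of 9 was 16 without Emx1-Cre replicate 6, 5 without replicates 1 and 2 and 3 in females alone.

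The library labelled Emx1-Cre replicate 6 differed from Tie2-Cre in some groups of genes and not in others. Without it, 3876 genes were higher and 3601 lower. Replicate 6 lay on the same side of the Tie2-Cre mean as the other 5 Emx1-Cre libraries for 73.1% and 74.6% of these genes. Its median place was 22.6% and 22.8% of the way from the Tie2-Cre mean to the mean of the other 5. For the 8 immediate early genes called lower without it, replicate 6 stood on the same side for 8 of 8, at a median of 96.2% of the way. For complement and disease-associated microglial genes it stood at 44.5% and 40.8%, and for reactive astrocyte genes at 33.4%. For interferon-stimulated genes it stood at 3.78%, on the same side for 12 of 22. For cell cycle genes it stood at -25%, on the far side of the Tie2-Cre mean. These are descriptions of 1 library, with no test.

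**Figure D5:**
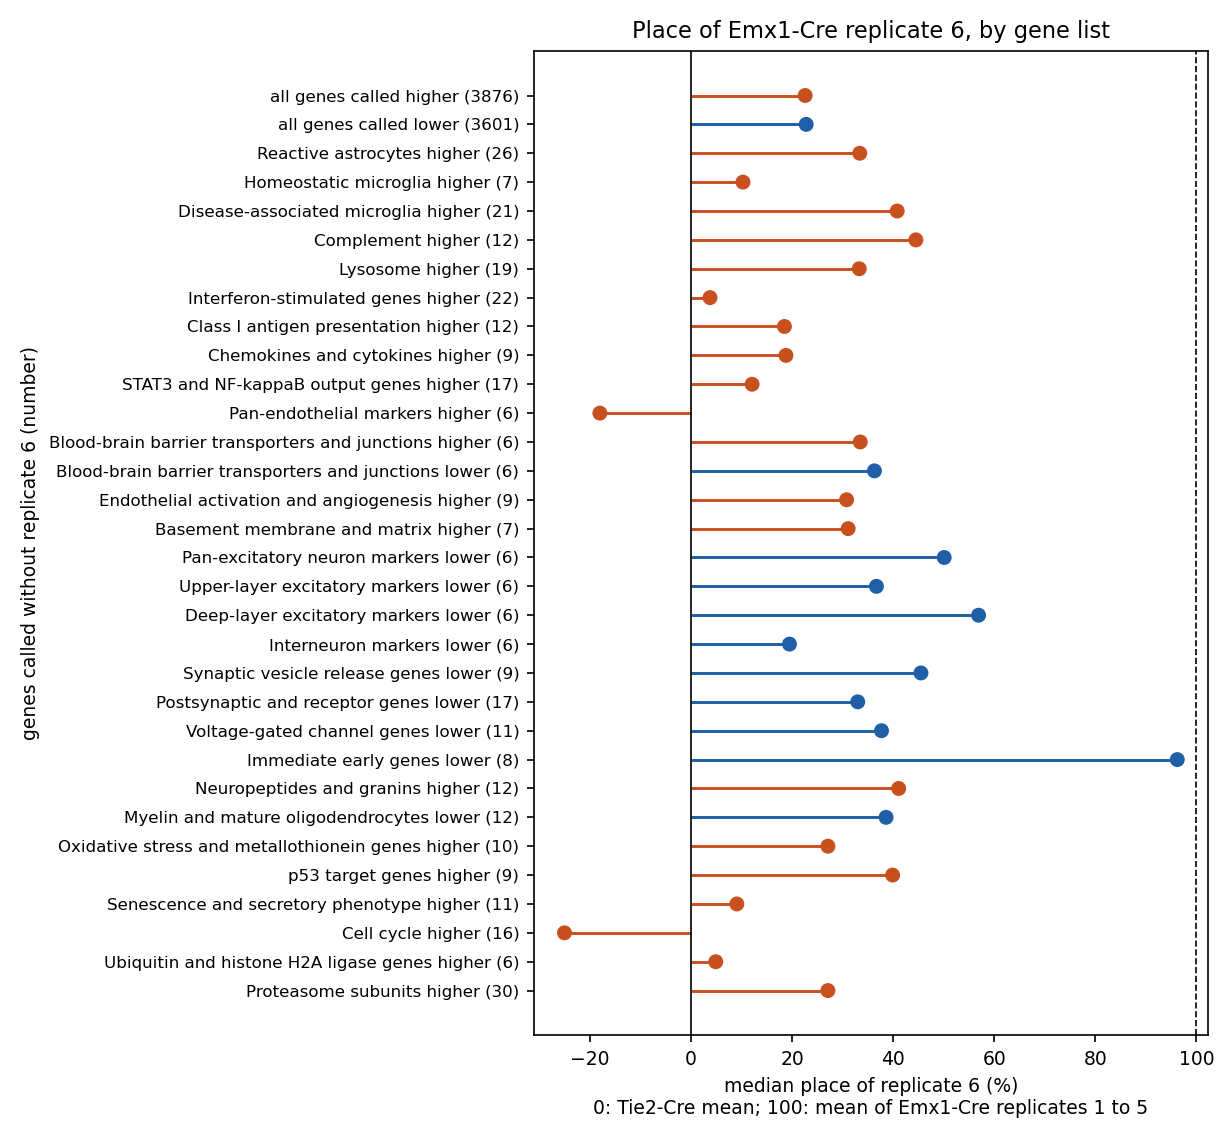
Median place of Emx1-Cre replicate 6 on a scale where 0% is the Tie2-Cre mean and 100% the mean of Emx1-Cre replicates 1 to 5, for genes called without it, by list (number of genes in parentheses). Immediate early genes stand at 96.2%, all genes at 22.6% and 22.8%, and cell cycle genes at -25%.

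Since sex was read from the counts and each group held both sexes, the comparison was repeated within each. In females alone, with 3 Emx1-Cre and 2 Tie2-Cre libraries, 1993 genes were higher and 1973 lower. In males alone, with 3 and 3 libraries, 42 were higher and 38 lower, and without Emx1-Cre replicate 6, 1 of the 3 Emx1-Cre males, the counts were 3298 and 3045. With sex as a covariate, 2934 were higher and 2637 lower. Of the 148 named genes that passed the test, 24 did not pass in females alone. In males alone 125 of the 139 with a value did not pass, and in males without replicate 6, 13 of 148 did not.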

How the data were processed

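Polyadenylated RNA of whole cerebral cortex was sequenced from 1 mouse cortex per library as far as the labels say. Per the submitters' processing notes, Salmon 1.5.2 and build GRCm38 were used, and the deposited table holds estimated counts per gene. The sources used here do not give the annotation release, library strandedness or trimming. Of 16431 tested gene identifiers, 16415 were found in GENCODE M21, which supplied positions.

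Estimated counts were rounded, scaled by TMM factors over all 30 libraries and filtered with filterByExpr (minimum 10, total 15). The 11 libraries of both groups were fitted with edgeR 4.0.16 (glmQLFit robust, glmQLFTest) in R 4.3.3, with Benjamini-Hochberg adjustment over all tested genes and a threshold of 0.05. CPM use the scaled library sizes. P-values set the difference between the group means against the spread among these libraries. Alternatives were DESeq2 1.42.0, limma 3.58.1 (voom), other scalings, filters and sets of libraries. On simulated counts with each group's own spread, 22.4% of 1.5-fold, 65.7% of 2-fold and 95.5% of 4-fold changes were recovered. The simulation left 16051 of 16251 genes unchanged, so these rates need not hold where many genes differ, as here. Promoters are RefSeq windows of GRCm38.p6.

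The members, the 53 gene lists and the naming rule were chosen with earlier results of these data known. Named were Brap, Emx1 and Tek, the 10 largest changes each way among called genes of at least 1 CPM on average, up to 4 members of each list described with the smallest adjusted p, and 7 of the 24 called genes within 1 Mb of the 3 loci. Those 7 and, outside this rule, Lcn2, P2ry12, Isg15, Dusp6, Slc17a7, Gad1, Scg2, Sst and Mki67 were chosen after their values were seen. Same-numbered libraries of the groups did not deviate together, with correlations from -0.0524 to 0.0667, so the numbers were not treated as pairs. Results for some genes are not reported here.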

Additional observations from a re-analysis of the deposited data

Results flagged for a closer look

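A library stood apart from the others of its group in 32 of 388 sets of values examined, where the gap between the highest or lowest library and its neighbour took up most of the group's range. Chance alone gives about 1 in 20 groups. The causes were not tested.

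Emx1-Cre replicate 6 stood apart in 9 of them. Its first principal component was -24.1, against 46.7 in the next library. It was the lowest library for Ncoa4-ps at 0 CPM (next 8.96), Col18a1 at 8.74 CPM (16.6) and Psmb2 at 48.2 CPM (77.1). It was also the lowest for the mean log2 CPM of reactive astrocyte genes, 2.92 (4.68), and of senescence genes, 3.58 (4.55). It was the highest for C030029H02Rik at 1.2 CPM (0.376), H2-Ab1 at 1.79 CPM (1.05) and Cxcl12 at 33.3 CPM (20.6).

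Emx1-Cre replicate 1 was highest for Cxcl10 at 280 CPM (next 8.59), Gbp2 at 126 CPM (16.8), Isg15 at 48.1 CPM (3.64) and the interferon-stimulated list, with a mean log2 CPM of 6.02 (3.02). Emx1-Cre replicate 2 was highest for Gm49339 at 15.6 CPM (3.76) and Hk2 at 18.9 CPM (11.3), and lowest for Dlg4 at 547 CPM (677). Emx1-Cre replicate 4 was highest for Gm15459 at 2.66 CPM (0.855).

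Tie2-Cre replicate 3 was highest for Lcn2 at 12.1 CPM (next 0.591), Isg15 at 1.98 CPM (0.762), Lamp5 at 209 CPM (141), C030029H02Rik at 5.33 CPM (2.7) and the mean log2 CPM of neutrophil and monocyte markers, 1.51 (0.387). It was lowest for Dysf at 2.71 CPM (3.87). Tie2-Cre replicate 4 was highest for Gm15459 at 364 CPM (0.616), Itgb2 at 7.51 CPM (5.87), Apln at 36.1 CPM (28.7) and the mean log2 CPM of interneuron markers, 5.51 (5.33), and lowest for Kcnq3 at 165 CPM (206). Tie2-Cre replicate 5 was highest for Fkbp5 at 122 CPM (62.5) and Ncoa4-ps at 0.338 CPM (0) and lowest for Sdhb at 77.9 CPM (87), and Tie2-Cre replicate 1 was highest for Gm49339 at 0.145 CPM (0).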

How the results depend on the processing

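Across settings the counts of 3050 higher and 2550 lower genes moved most with the libraries kept. Females alone gave 1993 higher and 1973 lower, and males alone gave 42 and 38, with Emx1-Cre replicate 6 as 1 of 3 males on that side. limma voom with sample quality weights called 3906 lower and 3857 higher. Leaving out 1 library at a time gave 2249 to 3876 higher and 1776 to 3601 lower, the highest counts without Emx1-Cre replicate 6 and the lowest without Tie2-Cre replicate 1. The replicate block over replicates 1 to 5 gave 3136 higher and 3238 lower, without replicate 6, and 1 of 5 numbers correlated best with itself, so the numbers give no pairing. Under the block, H2-D1 and H2-K1 did not pass (adjusted p = 0.0567 and 0.053). DESeq2, RLE scaling, TMM on the 11 libraries, sex as a covariate, and looser or stricter filters kept both counts within 1.5 times. All scalings moved the median of all genes by under 0.1 (log2). Of the 148 named genes that passed, 8 lost the call in at least 1 fit without a single library, and up to 9 had no value in a fit without 1 library because they failed the count filter there.

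Signs turned for genes that rested on few libraries or did not pass. Gm15459 ranged from -7.01 to 1.1 without single libraries, with 1.1 without Tie2-Cre replicate 4, and turned to 0.509 in males alone and 0.111 in males without the sixth Emx1-Cre library, and Tpm3-rs7 to 0.695 in females alone. In males without the sixth library, Gad1 stood at -0.095, Slc17a7 at -0.274 and Emx1 at -0.234, and Dusp6 stood at 0.243 in females alone. Emx1 also stood at -0.0349 with sex as a covariate, -0.373 in males alone, -0.00669, -0.0202 and -0.1 without Emx1-Cre replicates 1, 4 and 5, and -0.000597 without Tie2-Cre replicate 5, in a range of -0.1 to 0.157 without single libraries. The causes were not tested. Simulated 1.5-fold changes were recovered in 22.4% of cases. The simulation left 16051 of 16251 genes unchanged, while 34.1% of genes were called in these data, so its rate need not hold here.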

Other observations

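Of 36 tested nuclear genes of oxidative phosphorylation, of 37 listed, 19 were higher and none lower, with a median log2 fold change of 0.29. Sdhb, a subunit of succinate dehydrogenase, stood at 169, 136, 133, 149, 162 and 101 CPM in Emx1-Cre replicates 1 to 6 and 88.2, 87, 89.9, 89 and 77.9 CPM in Tie2-Cre (log2 fold change 0.71 ± 0.12, adjusted p = 0.00201). The 19 fell to 11 without Tie2-Cre replicates 2 or 5. Of 18 genes of glycolysis and lactate transport, 5 were higher and 1 lower, among them Hk2, a hexokinase (1.20 ± 0.25). The 5 fell to 3 without Emx1-Cre replicate 5 or Tie2-Cre replicates 1 or 4 and to 2 without Tie2-Cre replicates 2 or 5, and none was lower without Tie2-Cre replicate 5. Of 27 cytosolic ribosomal protein genes, 14 were higher and none lower, among them Rplp0 (0.93 ± 0.17), and these genes have many near-identical pseudogenes, so their estimated counts are uncertain. Their count rested on single libraries: it was 22 without Emx1-Cre replicate 6, 8, 8 and 9 without Emx1-Cre replicates 1, 2 and 5, and 6, 4, 6 and 5 without Tie2-Cre replicates 1, 2, 3 and 5.

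Of 14 heat shock genes, 3 were higher (21.4%, against 18.6% of all genes) and none lower, or 5 higher without Emx1-Cre replicate 6. Hspb1, a small heat shock protein also known from reactive astrocytes, stood at 7.58, 179 and 836 CPM (lowest, median and highest) in Emx1-Cre and 8.81, 10.2, 7.54, 14.9 and 6.46 CPM in Tie2-Cre (log2 fold change 5.00 ± 0.95, adjusted p = 0.00422), and the co-chaperone gene Bag3 was higher by 1.27 ± 0.24. Of 13 glucocorticoid target genes, 8 were higher and none lower. The 8 became 5 without Emx1-Cre replicate 1 or any 1 of Tie2-Cre replicates 1 to 4, and 10 without Tie2-Cre replicate 5. That Tie2-Cre library had a mean log2 CPM of 6.35 over the list, above Emx1-Cre replicate 6 at 6.11. Of 15 clock genes, none was higher and 5 were lower, though 3 were higher without Emx1-Cre replicate 6 and 3 in females alone. Among the 5 were Hlf (-1.16 ± 0.28) and Per3 (-0.91 ± 0.26). The 5 fell to 3 without Emx1-Cre replicates 1 or 4 or Tie2-Cre replicates 1, 4 or 5 and to 2 without Tie2-Cre replicate 2, which also ended the call of Per3 (adjusted p = 0.0555), and the labels do not give the hour of collection. Of 19 cholesterol synthesis genes, none was higher and 3 were lower (15.8%, against 15.5% of all genes), or 5 without Emx1-Cre replicates 4, 5 or 6. Srebf2, which encodes the sterol-responsive factor, and Idi1, an isomerase of the pathway, were lower (-0.70 ± 0.14 and -0.69 ± 0.15).

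Among tissue markers outside the cortex, the striatal list and the hippocampal and thalamic list were called lower more often than all genes. Each had 4 of 12 markers lower (33.3%, against 15.5% of all genes) and 2 higher (16.7%, against 18.6%). The cause was not tested. The 4 striatal markers lower became 2 without Emx1-Cre replicate 3 or Tie2-Cre replicates 1, 2 or 3. Of 13 fibroblast and meningeal markers tested 2 were lower (15.4%), or 5 without Emx1-Cre replicate 6. Among 9 border macrophage markers tested 1 was higher (11.1%) and none lower. Without Emx1-Cre replicate 6, 3 border macrophage markers were lower, and in females alone 4. Of 11 choroid plexus and ependymal markers, 1 was higher and 1 lower (9.09% each), or 2 higher without Emx1-Cre replicate 6. Of 21 genes of the unfolded protein and integrated stress responses, 3 were higher (14.3%) and 1 lower (4.76%), against 18.6% and 15.5% of all genes. Without Emx1-Cre replicate 6, 5 were higher. The 1 lower became none without Emx1-Cre replicates 1 or 4 or Tie2-Cre replicates 3, 4 or 5, and 2 without Emx1-Cre replicates 5 or 6 or Tie2-Cre replicate 2. Of 5 haemoglobin genes, 2 were lower, or 5 without Emx1-Cre replicate 5. They became 1 without Emx1-Cre replicates 1 or 2 or Tie2-Cre replicates 1, 2, 4 or 5.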
